A study of Mus musculus with 30 samples.

Results

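The 9 genes described here encode parts of the pathway that makes immunoglobulin A (IgA) and carries it into the gut lumen, together with genes of the B cells and plasma cells behind it. They were chosen by symbol: Igha and Ighm (immunoglobulin heavy chains), Jchain, Mzb1 and Tnfrsf17 (plasma cells), Cd79a, Cd79b and Ms4a1 (B cells) and Pigr (epithelium). All 9 were found among the 31023 genes of the deposited table, 7 by the table's own symbol column. Igha and Ighm carry no symbol there and were named from their gene identifiers with GENCODE vM21. Igha lies at chr12:113254830-113260236 and Ighm at chr12:113418558-113422730 (both on the minus strand), Jchain at chr5:88519809-88527891 (minus), Cd79a at chr7:24897381-24902197 (plus) and Pigr at chr1:130826684-130852249 (plus), in build GRCm38. All 9 passed the filter on low counts that left 19558 genes for testing.

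The libraries hold colonic RNA of male C57BL/6 mice in a model of colitis-associated cancer, 30 in all, with 10 groups of 3 mice. The design crosses deletion of Smox, which encodes spermine oxidase, with spermidine in the drinking water, in untreated mice and during carcinogenesis. Spermine oxidase turns spermine into spermidine. Mice were 8 to 12 weeks old, bred in house, and either Smox-/- or wild type (WT).

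The groups with tumor tissue were Smox-/- tumors after AOM-DSS and WT tumors after AOM-DSS with spermidine. AOM-DSS was an injection of 12.5 mg/kg azoxymethane, a colon carcinogen, followed by 3 cycles of dextran sulfate sodium at 4%, an agent that damages colonic epithelium. Each cycle lasted 5 days, and the cycles began on days 5, 26 and 47. The tumor-free groups were colon after AOM-DSS with spermidine, after AOM-DSS alone, after spermidine alone and without treatment, each in Smox-/- and in WT mice. Spermidine was given at 14 mM in drinking water for 56 days. Which part of Smox was deleted, where along the colon tissue was taken, and whether any mouse gave both tumor and tumor-free tissue are not in the labels. Not analysed here were WT tumors after AOM-DSS alone and Smox-/- tumors after AOM-DSS plus spermidine.

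Plasma cells of the gut wall secrete IgA mainly as a dimer, whose IgA units are held together by the joining chain, the product of Jchain. The polymeric immunoglobulin receptor, made from Pigr by epithelial cells, binds this dimer, carries it through the cell and releases it into the lumen as secretory IgA. B cells carry the signalling chains Cd79a and Cd79b of the B cell receptor and CD20, the product of Ms4a1, and lose CD20 when they become plasma cells. Plasma cells make Mzb1, a chaperone of the endoplasmic reticulum that helps assemble immunoglobulin, and Tnfrsf17 (BCMA), a receptor for the survival factor APRIL. Ighm, the heavy chain of IgM, is made by B cells that have not switched class and by some plasma cells.

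Stretches upstream of Cd79a and Pigr are shown because these genes stand for the B cell and the epithelial side of the pathway. Both come from RefSeq (build GRCm38.p6), run 5′ to 3′ on the gene's own strand and end at the base before the more upstream of the RefSeq and GENCODE starts. Capitals mark matches, searched on both strands, to the E-box hexamers CAGGTG and CACGTG, which basic helix-loop-helix factors bind, and to CAAGGGAAT, a motif known to be bound by the B cell factor EBF1. The first is at chr7:24897247-24897380, plus strand, and the second at chr1:130826434-130826683, plus strand.
Cd79a: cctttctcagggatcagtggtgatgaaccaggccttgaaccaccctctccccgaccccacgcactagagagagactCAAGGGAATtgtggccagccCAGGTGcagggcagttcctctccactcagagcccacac
Pigr: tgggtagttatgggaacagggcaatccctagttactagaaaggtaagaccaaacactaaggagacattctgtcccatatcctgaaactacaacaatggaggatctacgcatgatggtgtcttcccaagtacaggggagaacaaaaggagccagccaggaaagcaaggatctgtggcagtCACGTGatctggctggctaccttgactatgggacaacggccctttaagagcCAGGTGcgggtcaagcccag
In the 134 bases before Cd79a, CAAGGGAAT began at position -58 and CAGGTG at position -38 from the start. Windows of that length before 32851 mouse promoters held CAAGGGAAT in 0.140% and CAGGTG in 9.75% of cases. In the 250 bases before Pigr, CACGTG began at position -71 and CAGGTG at position -20, and these hexamers were present in 6.02% and 17.2% of windows of that length. The same window before Jchain held none of the 3 motifs. A match describes letters in a window and is not evidence of binding. CAAGGGAAT was searched because it is a known site of a B cell factor, so its share of windows is no test of the match before Cd79a.

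Library totals ran from 33060607 to 81011304 counts. Smox itself was at 18.6 to 68.7 CPM in the 15 Smox-/- libraries, against 25.1 to 169 CPM in the 15 WT libraries, so its level over the whole gene did not separate the genotypes. CPM values are a gene's counts scaled to the library size, so that libraries of different depth can be compared. The mean log2 CPM of 12 genes of colonic epithelium was 8.11 or more in every library. Several tumor-free libraries stood apart in genes of other tissues. Untreated WT replicate 3 had a mean log2 CPM of 10.04 over 6 skeletal muscle genes and 0.19 over 6 distal hindgut Hox genes. Smox-/- replicate 1 after AOM-DSS with spermidine had the lowest epithelial mean of the tumor-free libraries, at 9.38, with the next at 9.53. Untreated Smox-/- replicate 3 had a mean log2 CPM of 8.23 over 6 squamous epithelial genes, against -2.02 and 2.67 in the other libraries of its group. Smox-/- replicate 1 after spermidine had 7.45 over the skeletal muscle genes and 4.04 over 10 T cell genes. In bulk tissue fewer cells of a type and less RNA per cell cannot be told apart, and this holds for every result below.

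By group means Pigr was the most abundant of the genes per length of transcript, and its group means lay between 318 and 1437 CPM per kilobase of exon. In 1 library, Smox-/- replicate 2 after AOM-DSS, Igha was above it, at 1165 against 1065 CPM per kilobase. The group means of Igha spanned 12.6 to 794 CPM per kilobase and those of Jchain 2.14 to 145 CPM per kilobase. The other genes were far lower, from Ighm at 0.305 to 14.8 down to Ms4a1 at 0.00425 to 0.782 CPM per kilobase. Tnfrsf17, with 279 counts in all 30 libraries together, was at 3 counts or fewer in 12 of them.

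**Figure D1:**
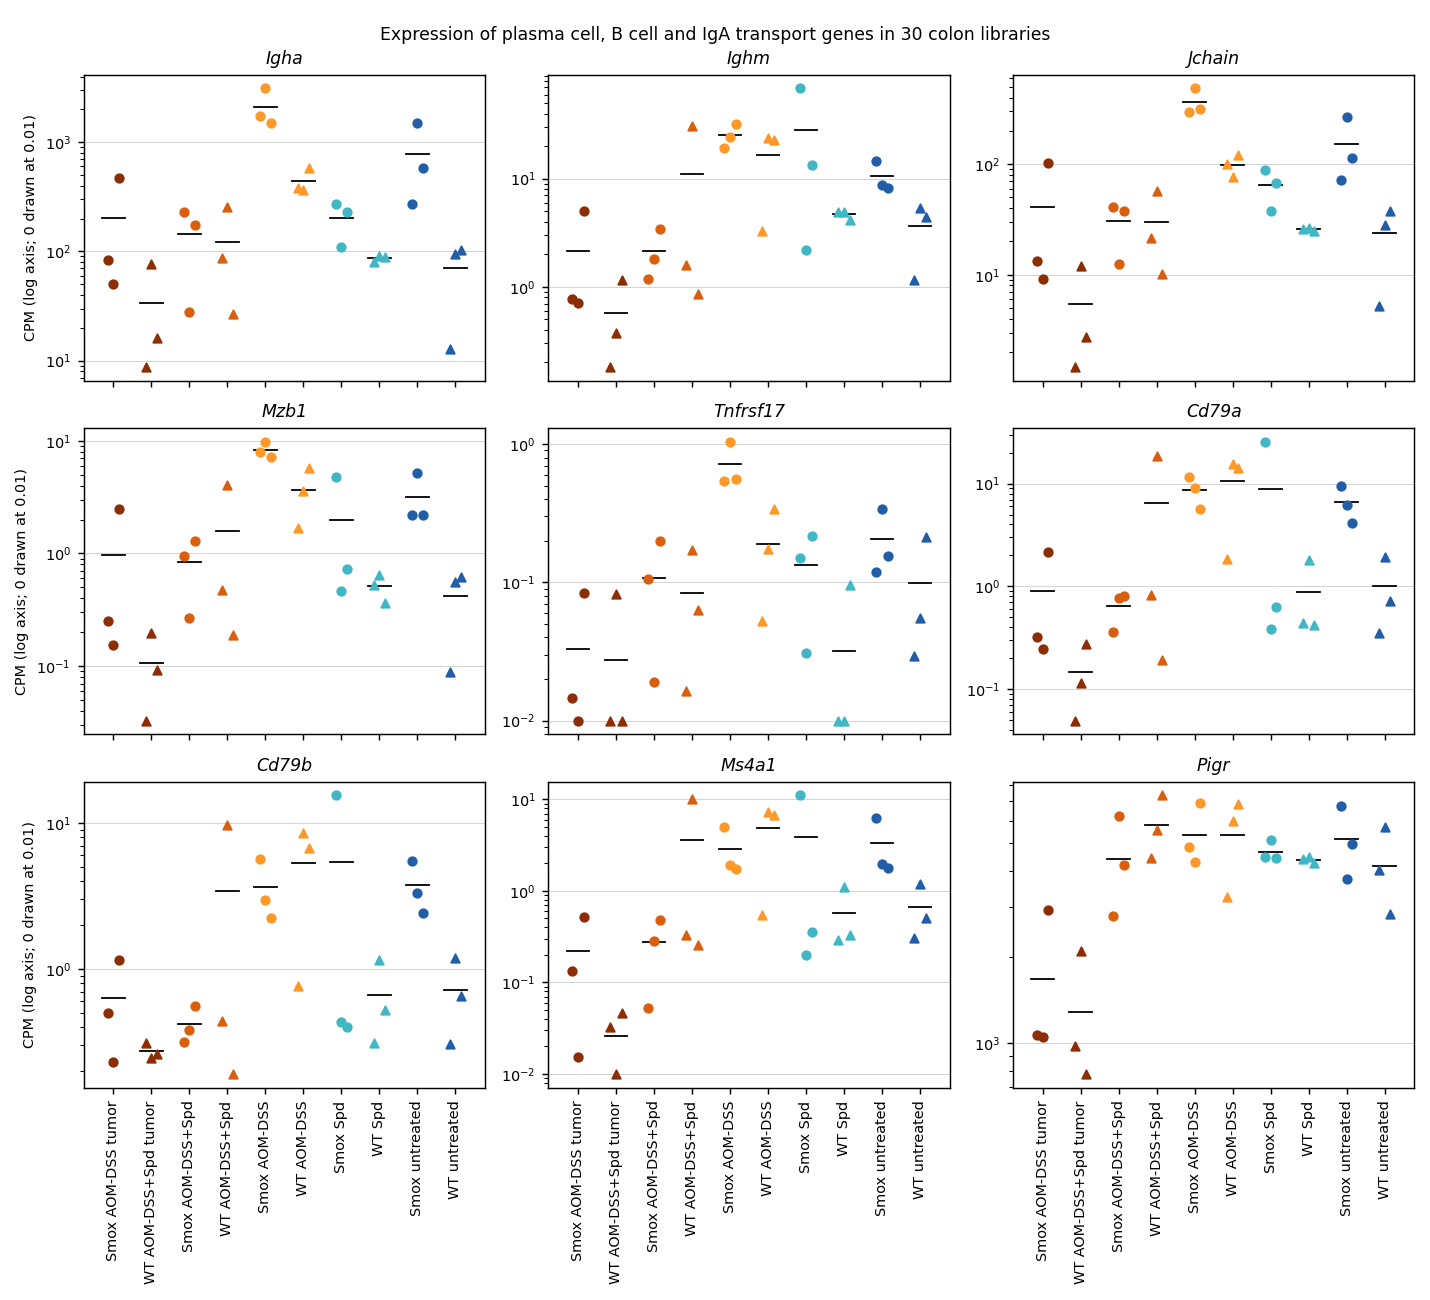
CPM of each gene in the 30 libraries (log axes, with a count of 0 drawn at 0.01), by group from tumors at the left to untreated colon at the right; circles are Smox-/-, triangles WT, and bars are group means (n = 3). Igha, Jchain, Mzb1 and Tnfrsf17 have their highest mean in Smox-/- colon after AOM-DSS, while Pigr separates the 6 tumor libraries from most others.

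The levels of Igha, Jchain, Mzb1 and Tnfrsf17 had the same highest and the same lowest group: Smox-/- colon after AOM-DSS and WT tumors after AOM-DSS with spermidine. Igha had a mean of 2118 ± 865 CPM in the highest group and 33.7 ± 37.0 CPM in the lowest (SD, n = 3 each). Next below the highest group came untreated Smox-/- colon at 788 ± 647 CPM and WT colon after AOM-DSS at 441 ± 117 CPM. Between neighbouring groups in this order, the libraries did not overlap for Igha only at 1 step, between WT colon after AOM-DSS and Smox-/- colon after spermidine. For Jchain, Mzb1 and Tnfrsf17 that step was the first one, directly below the highest group. In all 9 genes the lowest mean was that of the WT tumors, while Cd79a and Ms4a1 peaked in WT colon after AOM-DSS, Ighm and Cd79b in Smox-/- colon after spermidine, and Pigr in WT colon after AOM-DSS with spermidine.

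Calls were sparse among the tumor-free groups and frequent in tumors. Each gene was tested in 15 comparisons of groups and 3 interactions with edgeR's quasi-likelihood test, with Benjamini-Hochberg adjustment over all 19558 genes and a threshold of 0.05. A gene is said below to rise or fall only where its adjusted p passed. Changes are on the log2 scale, first-named over second-named group, with the standard error (SE) of the fit. The tests measure the spread between mice of a group as far as the labels tell them apart.

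**Figure D2:**
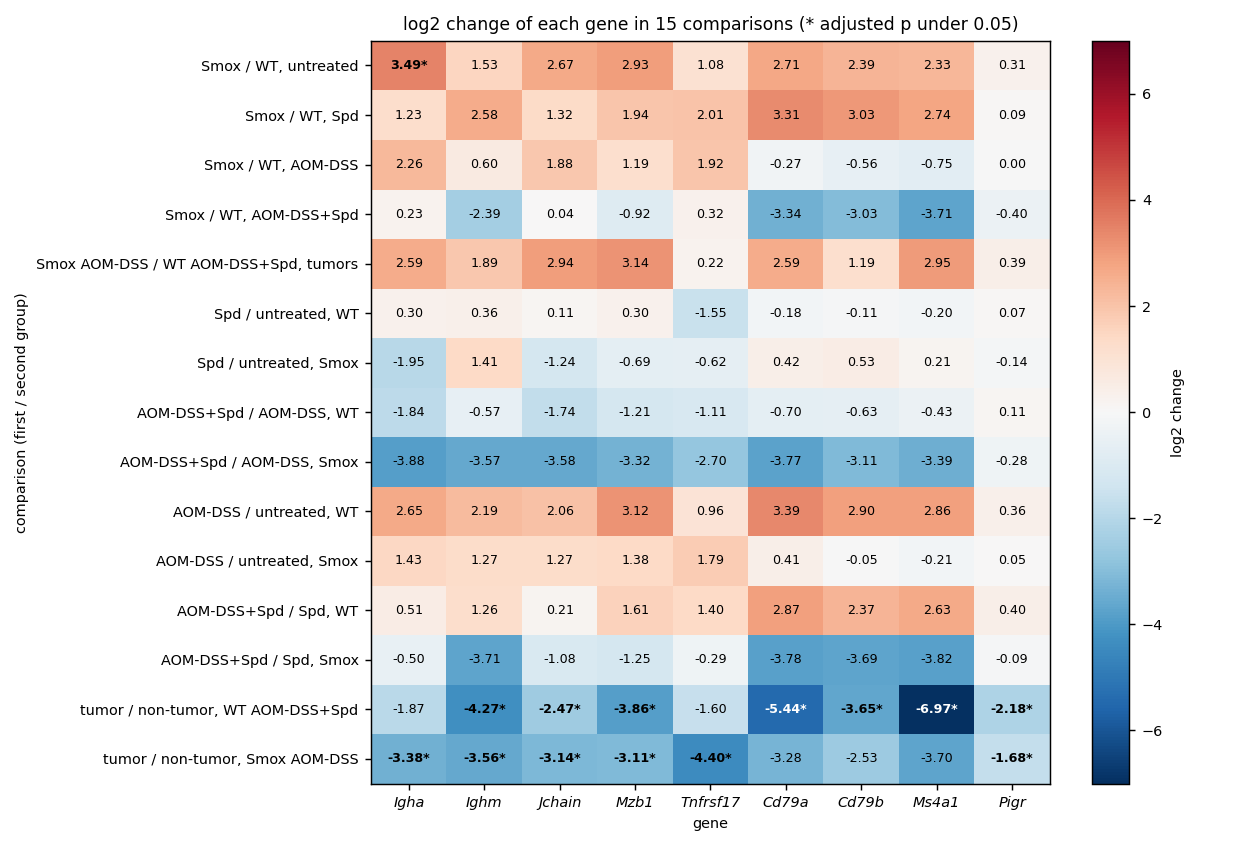
The log2 change of each gene (columns) in 15 comparisons (rows), given as first group over second group; red is higher and blue lower in the first group, and an asterisk with bold type marks an adjusted p under 0.05. The called changes are Igha in untreated Smox-/- colon and those of the 2 tumor comparisons in the lowest rows.

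Igha rose in untreated Smox-/- colon. It had 271, 1513 and 581 CPM in untreated Smox-/- mice, against 12.7, 94.1 and 104 CPM in untreated WT mice. No Smox-/- library reached down to the WT libraries, although the mice of each group differed several-fold among themselves. The log2 change was 3.49 (SE 1.02), an 11.2-fold difference, with an adjusted p of 0.0464 by edgeR. The call rested on all but 1 of the libraries. Without Smox-/- replicate 2 or 3 the adjusted p was 0.223 or 0.111, and without WT replicate 1, 2 or 3 it was 0.118, 0.0703 or 0.130. Jchain, at 71.3, 268 and 115 CPM in untreated Smox-/- mice against 5.21, 28.4 and 37.9 CPM in untreated WT mice, had a log2 change of 2.67 (SE 0.88) and did not pass (adjusted p 0.0686, edgeR).

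Of the 9 genes 1 was called higher in untreated Smox-/- colon, where 2.63% of all tested genes were called higher. In 7 of the 9, all except Tnfrsf17 and Pigr, every Smox-/- library lay above every WT library, which held for 14% of all tested genes. DESeq2 called 3 of the genes higher, namely Igha, Jchain and Mzb1, where it called 6.06% of the genes it tested higher. It gave no adjusted p for Ms4a1, here or in any other comparison. Of 9 further immunoglobulin constant region genes 2 rose and none fell, namely Ighg2c (2.79 ± 1.27 CPM in untreated Smox-/- colon, 0.0637 ± 0.0116 CPM in untreated WT colon) and the kappa light chain gene Igkc (294 ± 222 and 25.9 ± 18.3 CPM). The median log2 change of these 9 was 3.05, beside -0.01 over all tested genes. Of 12 genes of plasma cells and the secretory pathway 3 rose and none fell. They were Derl3 (log2 change 2.57), which takes part in the breakdown of misfolded proteins, Sdc1 (0.77), a surface proteoglycan of plasma cells that epithelium also makes, and Xbp1 (0.77), a transcription factor needed for secretion. None of 20 mature B cell genes was called, although 19 had a log2 change above 0. Other lists differed too, although the lymphoid follicle list shares Cr2, Fcer2a and Cxcr5 with the mature B cell list. The 8 lymphoid follicle genes had a mean log2 CPM of -0.22 to 0.85 in untreated Smox-/- and -3.18 to -0.87 in untreated WT libraries. The 10 T cell genes were at 1.20 to 1.22 in untreated Smox-/- and -1.15 to 0.17 in untreated WT libraries. All 8 and all 10 had a log2 change above 0, and none was called. Of 16 tested genes that guide plasma cells to the colon or keep them alive 1 rose, Tgfb1 (log2 change 1.14). Of the other lists, 2 of 6 macrophage genes and 3 of 6 squamous epithelial genes rose, and the mean log2 CPM of 8 smooth muscle genes was 6.55 to 8.21 in untreated Smox-/- and 8.74 to 9.39 in untreated WT libraries. Their part in the result was not tested. Whether the calls of list genes in this comparison held without single libraries was not tested either. Over all genes, 515 were called higher with all libraries. Without Smox-/- replicate 2 or 3 there were 4 and 3, and without WT replicate 3 there were 10.

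After AOM-DSS, Igha was at 1740, 3108 and 1506 CPM in Smox-/- colon, against 382, 366 and 576 CPM in WT colon. Jchain was at 295, 484 and 316 CPM in Smox-/- colon and at 99.7, 77.2 and 121 CPM in WT colon. The groups did not overlap in either gene, nor in Mzb1 (7.18 to 9.76 and 1.68 to 5.68 CPM) or Tnfrsf17 (0.544 to 1.04 and 0.0524 to 0.338 CPM). None of these passed: the log2 change was 2.26 (SE 0.97) for Igha and 1.88 (SE 0.86) for Jchain, with adjusted p of 0.552 and 0.572 by edgeR. No gene of the 9 was called in this comparison, which called 0.0665% of all genes, and 2 of the 9 had an unadjusted p under 0.05. The 4 genes that did not overlap compare with 6.35% of all tested genes that were higher in every Smox-/- library.

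Set against untreated colon, Igha after AOM-DSS gave a log2 change of 1.43 (SE 0.94) in Smox-/- and 2.65 (SE 0.99) in WT mice, and neither passed (adjusted p 0.565 and 0.0986, edgeR). These comparisons share the AOM-DSS and untreated groups with those between genotypes above. In WT mice Igha, Jchain and Mzb1 did not overlap between AOM-DSS and untreated colon, beside 7.98% of all genes that were higher without overlap. edgeR called 0 of the 9 there, against 6.44% of all genes, and 5 of the 9 had an unadjusted p under 0.05. DESeq2 called 3 higher, Igha, Mzb1 and Cd79a, against 4.76% of its genes. Tissue lists also differed without overlap between these WT groups. The mean log2 CPM of lymphoid follicle genes was -0.66 to 0.91 after AOM-DSS and -3.18 to -0.87 in untreated colon. Smooth muscle genes were at 5.02 to 7.79 and 8.74 to 9.39, and skeletal muscle genes at -2.16 to -0.41 and 0.15 to 10.04. The part of these lists in the WT values was not tested. In Smox-/- mice Ighm, Jchain, Mzb1 and Tnfrsf17 were higher without overlap, beside 10.1% of all genes. edgeR called 0 of the 9 there, against 0.0767% of all genes, and 0 had an unadjusted p under 0.05. The distal hindgut Hox genes did not overlap either, with a mean log2 CPM of 1.62 to 2.58 after AOM-DSS and 4.49 to 5.56 in untreated Smox-/- colon, and Hoxd10 fell. Their part in the values was not tested. The interaction of genotype with AOM-DSS was called for 0 of the 9 and 0% of all genes, with adjusted p from 0.424 to 0.860 for the 9.

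Among the comparisons of tumor-free groups, spermidine given to Smox-/- mice during AOM-DSS had the largest log2 values for Igha and Jchain, and edgeR called neither. In Smox-/- colon Igha was at 231, 27.9 and 174 CPM after AOM-DSS with spermidine, against 1740, 3108 and 1506 CPM after AOM-DSS alone. Jchain was at 41.2, 12.5 and 37.9 CPM with spermidine and at 295, 484 and 316 CPM without. Every library with spermidine lay below every library without it in 8 of the 9 genes, all but Pigr, while 8.29% of all tested genes were lower without overlap. The log2 change was -3.88 (SE 1.04) for Igha, -3.58 (SE 0.92) for Jchain and -3.32 (SE 1.12) for Mzb1. For the B cell genes it was -3.77 (SE 1.46) in Cd79a, -3.11 (SE 1.28) in Cd79b and -3.39 (SE 1.49) in Ms4a1. The same 8 genes had an unadjusted p under 0.05, but their adjusted p ran from 0.178 to 0.328. edgeR called 0% of all genes in this comparison, although 2676 of 19558 had an unadjusted p under 0.05. DESeq2 called 4 genes lower, Igha, Ighm, Jchain and Mzb1, against 0.806% of its genes, and gave no adjusted p for Ms4a1. Pigr had a log2 change of -0.28 and a 95% interval from -1.08 to 0.51.

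Other B cell and immunoglobulin genes lay on the same side in this comparison, again without a call. All 20 mature B cell genes had a negative log2 change, with a median of -2.86 beside 0.00 over all genes, and so did all 9 further constant region genes, with a median of -3.62. The 12 epithelial genes had a median of -0.02, and the 6 Hox genes of the distal hindgut were at a mean log2 CPM of 0.46 to 2.83 with spermidine and 1.62 to 2.58 without. The 8 lymphoid follicle genes were at -2.45 to -1.51 with spermidine and at -0.45 to 1.43 without, with no overlap and a median log2 change of -2.09. All 6 macrophage genes also had a negative log2 change, with a median of -0.26. The part of these tissue components in the result was not tested. Leaving out Smox-/- replicate 1 after AOM-DSS with spermidine, which had the lowest epithelial mean, gave log2 changes of -4.38 for Igha and -3.85 for Jchain, neither called.

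In WT mice the same comparison gave smaller values. Igha was at 87.4, 256 and 26.8 CPM after AOM-DSS with spermidine, against 382, 366 and 576 CPM after AOM-DSS alone, with a log2 change of -1.84 (SE 0.96, adjusted p 0.862, edgeR). Igha and Jchain did not overlap, beside 5.8% of all genes lower without overlap, and edgeR called 0 of the 9 and 0% of all genes, with 0 of the 9 at an unadjusted p under 0.05. The distal hindgut Hox genes did not overlap here, with a mean log2 CPM of 5.71 to 6.05 with spermidine and 1.43 to 5.63 without. Their part in the WT values was not tested. Between the genotypes the effect of spermidine in AOM-DSS differed by a log2 value of -3.07 to -0.39 in the 9 genes. That interaction was called for 0 of them and 0% of all genes, at adjusted p values that round to 1, so the smaller values in WT mice are not shown to be smaller.

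Without AOM-DSS, spermidine was not followed by a called change in any of the 9 genes in either genotype. Igha was at 271, 110 and 232 CPM in Smox-/- colon after spermidine and at 80.3, 90.3 and 89.7 CPM in WT colon after spermidine. The WT values lay close together, and every Smox-/- library was above them. Igha and Jchain were the 2 genes without overlap between the genotypes here, beside 11.9% of all genes. The log2 change of Igha was 1.23 (SE 0.94), with an adjusted p of 0.715 by edgeR. edgeR called 0 of the 9 between genotypes after spermidine (0.0818% of all genes, and 3 of the 9 at an unadjusted p under 0.05). It called 0 of the 9 for spermidine against no treatment in Smox-/- colon (0% of all genes) and 0 in WT colon (0.00511%), with 0 of the 9 at an unadjusted p under 0.05 in both. The interaction of genotype with spermidine was called for 0 of the 9 (2.91% of all genes), with adjusted p from 0.356 to 0.944.

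**Figure D3:**
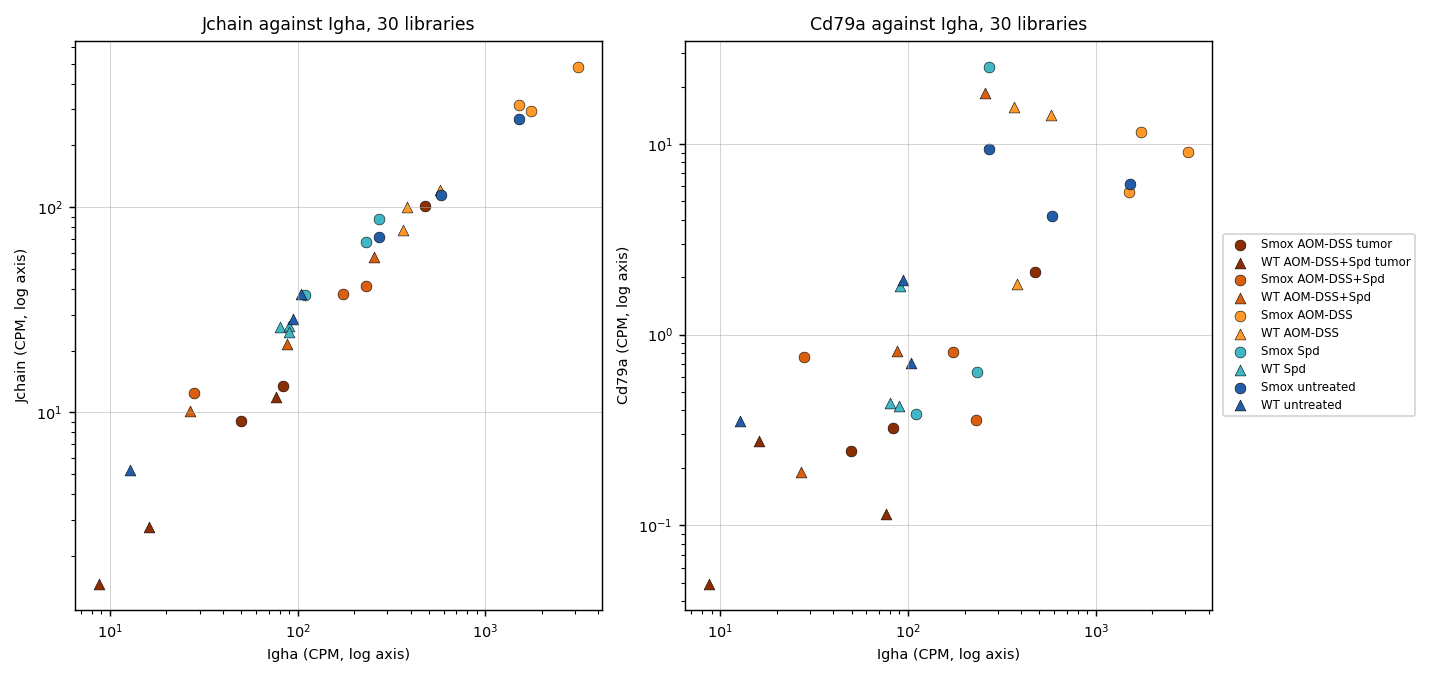
Jchain (left) and Cd79a (right) against Igha in the 30 libraries, in CPM on log axes; circles are Smox-/- and triangles WT. Jchain stays on a narrow band along Igha over the whole range, whereas at Igha levels near 271 CPM, Cd79a reaches 25.4 CPM in 1 library, and near 232 CPM it is 0.634 CPM in another.

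The ratio of Igha to Jchain varied far less than the level of either gene. The ratio of Igha to Jchain counts within a library ran from 2.24 to 6.42 over the 30 libraries, while Igha itself spanned a 355-fold range and Jchain a 331-fold range. It was 3.80 to 5.64 in untreated Smox-/- colon and 2.44 to 3.31 in untreated WT colon. The ratio of Jchain to Mzb1 was looser, at 14.2 to 92.8. Igha against Ighm spread far wider, with ratios of 3.96 to 203, and Igha against Cd79a ran from 10.6 to 665. The lowest value of both came from Smox-/- replicate 1 after spermidine, which had the highest Ighm of all libraries (68.4 CPM).

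**Figure D4:**
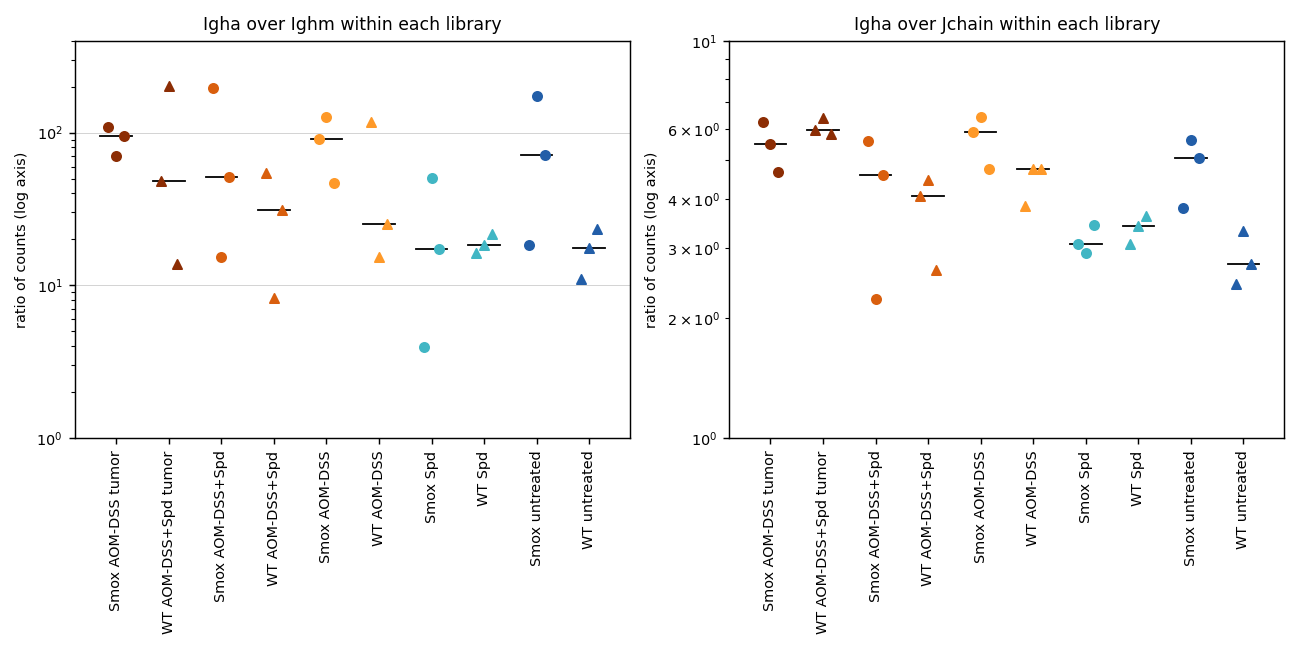
Ratio of Igha to Ighm counts (left) and of Igha to Jchain counts (right) within each library, on log axes by group; circles are Smox-/-, triangles WT, and bars are group medians. Igha over Jchain lies between 2.24 and 6.42 throughout, whereas Igha over Ighm runs from 3.96 to 203 and varies widely within most groups.

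Likeness of pattern was measured over 30 libraries and 12783 genes as the mean absolute difference of centred log2 CPM, where a smaller value means more alike. Among genes other than the 9, the 3 most like Igha were Igkc (0.13), Iglc1 (0.73) and Ighg2b (0.86), all immunoglobulin constant regions, and those most like Jchain, again outside the 9, were Igkc (0.37), Iglc2 (0.64) and Iglc1 (0.65). Within the 9, the value was 0.38 between Igha and Jchain, 0.57 between Igha and Mzb1, 0.47 between Jchain and Mzb1 and 1.26 between Igha and Cd79a. Ms4a1 was closest to H2-DMb2 (0.74), Pou2af1 (0.92) and Ikzf3 (0.96) among other genes, and to Cd79a (0.55) among the 9. Pigr was closest to Tnfsf13 (0.19), which encodes APRIL, to Golph3l (0.20), a Golgi protein gene, and to Gfpt1 (0.20), an enzyme gene of hexosamine synthesis. These values are descriptions, since all libraries and many cell types are shared between the genes.

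The B cell genes Cd79a, Cd79b, Ms4a1 and, in part, Ighm varied with single libraries within groups. Cd79a was at 25.4, 0.385 and 0.634 CPM in Smox-/- colon after spermidine and at 0.437, 1.79 and 0.423 CPM in WT colon after spermidine. It was at 0.355, 0.766 and 0.811 CPM in Smox-/- colon after AOM-DSS with spermidine and at 0.817, 18.5 and 0.190 CPM in the WT group of that treatment. A single mouse in each of these 2 groups, Smox-/- replicate 1 and WT replicate 2, thus held nearly all of the group's Cd79a. Ms4a1 was at 11.03, 0.200 and 0.356 CPM in the first and at 0.327, 10.1 and 0.254 CPM in the second of these groups. The highest over the lowest library within a group reached 96.9-fold for Cd79a, 50.6-fold for Cd79b and 36.2-fold for Ighm. For Igha it reached 9.55-fold, for Jchain 11.2-fold and for Pigr 2.79-fold. Mzb1, grouped above with the plasma cell genes, reached 21.2-fold and was highest in the same library of each of these 2 groups. It was at 4.76, 0.462 and 0.727 CPM in Smox-/- colon after spermidine. In WT colon after AOM-DSS with spermidine it was at 0.474, 4.04 and 0.190 CPM.

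The same libraries were high in genes of lymphoid follicles. This list shares Cr2, Fcer2a and Cxcr5 with the mature B cell list, so it is not a separate measure from B cells. The mean log2 CPM of 8 follicle genes was 2.70 in Smox-/- replicate 1 after spermidine, against -2.67 and -2.53 in the other libraries of that group. It was 1.76 in WT replicate 2 after AOM-DSS with spermidine, against -1.58 and -2.99 in the other libraries of its group. How many follicles a piece of colon held was not recorded in the labels, and its part in these values was not tested.

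Comparisons that include these libraries had large log2 values of B cell genes without a call. Cd79a had a log2 change of 3.31 (SE 1.43, adjusted p 0.452, edgeR) in Smox-/- over WT colon after spermidine and of -3.34 (SE 1.44, adjusted p 0.289) in Smox-/- over WT colon after AOM-DSS with spermidine. edgeR called 0 of the 9 in the AOM-DSS with spermidine comparison, against 0.251% of all genes, with 3 at an unadjusted p under 0.05. There the Hox genes had a mean log2 CPM of 0.46 to 2.83 in Smox-/- and 5.71 to 6.05 in WT libraries, and Hoxd10 fell. For AOM-DSS with spermidine over spermidine alone it called 0 of the 9 in Smox-/- colon (0.0205% of all genes, 4 of the 9 at an unadjusted p under 0.05) and 0 in WT colon (1.91%, 0 of the 9). DESeq2 called 3 lower in the Smox-/- comparison, Ighm, Cd79a and Cd79b, against 1.7% of its genes. Without Smox-/- replicate 1 after spermidine the log2 change there was 0.35 for Cd79a and 0.03 for Cd79b, against -3.78 and -3.69 with it. The Hox genes were at 0.46 to 2.83 after AOM-DSS with spermidine and 4.43 to 5.43 after spermidine alone in Smox-/- colon. In WT colon they were at 5.71 to 6.05 and 4.88 to 5.30. The part of the Hox difference in these values was not tested.

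Tumors had less of nearly all of these transcripts than tumor-free colon of the same genotype and treatment. In Smox-/- mice after AOM-DSS, Igha fell to 83.4, 49.9 and 475 CPM in tumors, against 1740, 3108 and 1506 CPM in tumor-free colon. Jchain fell to 13.4, 9.08 and 102 CPM in tumors, against 295, 484 and 316 CPM in tumor-free colon. Every tumor lay below every tumor-free library in both genes, and tumor replicate 3 was the highest tumor in each. The log2 change was -3.38 (SE 1.02, adjusted p 0.0217) for Igha and -3.14 (SE 0.90, adjusted p 0.0176) for Jchain by edgeR. Ighm (-3.56), Mzb1 (-3.11), Tnfrsf17 (-4.40) and Pigr (-1.68) fell too, so that 6 of the 9 genes were called lower, while 13.2% of all tested genes were called lower. All 9 genes were lower in every tumor than in every tumor-free library, beside 21.5% of all genes. Cd79a, Cd79b and Ms4a1 had log2 changes of -3.28, -2.53 and -3.70 and did not pass (adjusted p 0.0909, 0.132 and 0.0739, edgeR).

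These calls depended on the libraries: without tumor replicate 1 or 2 no gene of the 9 was called, and without tumor replicate 3 there were 8. The calls over all genes moved too. With all libraries 2585 of 19558 genes were called lower. Without tumor replicate 1, 2 or 3 these were 466 of 20066, 592 of 20059 and 3044 of 20103. Without tumor-free replicate 2 only Pigr of the 9 remained called, beside 1280 of 20048 genes called lower. Igha then had an adjusted p of 0.108 and 0.0945 without tumor replicate 1 or 2, 0.0663 without tumor-free replicate 2, and 0.00509 without tumor replicate 3. Its log2 change stayed between -4.96 and -2.92 in all 6 of these fits.

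In WT mice after AOM-DSS with spermidine, 7 of the 9 genes fell in tumors, where 17.5% of all tested genes were called lower. Ms4a1 fell to 0.0329, 0 and 0.0460 CPM in tumors, which is 5 counts in the 3 libraries together, against 0.327, 10.1 and 0.254 CPM in tumor-free colon. Cd79a fell to 0.0493, 0.115 and 0.276 CPM in tumors, against 0.817, 18.5 and 0.190 CPM in tumor-free colon. Ms4a1 and Pigr were the 2 genes in which the groups did not overlap, beside 27.3% of all genes. The log2 changes were -6.97 (SE 1.86, adjusted p 0.00703) for Ms4a1, -5.44 (SE 1.62, adjusted p 0.0133) for Cd79a and -3.65 (SE 1.31, adjusted p 0.0358) for Cd79b by edgeR. Ighm (-4.27), Mzb1 (-3.86) and Jchain (-2.47) fell as well.

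Igha did not pass in the WT comparison, with 8.75, 76.2 and 16.1 CPM in tumors against 87.4, 256 and 26.8 CPM in tumor-free colon and a log2 change of -1.87 (SE 0.96, adjusted p 0.134, edgeR). Without tumor replicate 2, the highest tumor, its log2 change was -3.32 (adjusted p 0.0291). Tumor-free replicate 2, the library rich in follicle genes, held nearly all of the B cell transcripts of its group. Without it only Pigr of the 9 remained called, beside 2385 of 20081 genes called lower. The log2 change was then -3.35 for Ms4a1, -1.79 for Cd79a, -0.24 for Cd79b and -1.09 for Ighm. Without tumor replicate 1 or 3 the calls numbered 2 and 4, beside 2181 of 20033 and 2167 of 20074 genes called lower. In the fit to all libraries mature B cell genes as a list fell too, with 14 of 20 called lower and none higher. The 3 with the smallest adjusted p were Spib (log2 change -4.45), Fcrla (-6.97) and Tnfrsf13c (-6.43). In Smox-/- tumors 1 of the 20 fell, Spib (-2.72), although all 20 had a negative log2 change.

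The 2 kinds of tumor differ in genotype and in spermidine, so these cannot be told apart between them. Smox-/- tumors after AOM-DSS had more Igha (83.4, 49.9 and 475 CPM) than WT tumors after AOM-DSS with spermidine (8.75, 76.2 and 16.1 CPM), with overlapping libraries and a log2 value of 2.59 (SE 0.98, adjusted p 0.696, edgeR). edgeR called 0 of the 9 genes there and 0.0614% of all genes, with 3 of the 9 at an unadjusted p under 0.05. DESeq2 called 1 gene, Jchain, higher in the Smox-/- tumors, against 0.644% of its genes, and gave no adjusted p for Ms4a1.

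Among other immunoglobulin constant regions 5 of 9 fell in Smox-/- tumors and 4 of 9 in WT tumors, and none rose. In Smox-/- mice they included Iglc1 (1.15 ± 1.31 CPM in tumors, 26.6 ± 31.3 CPM in tumor-free colon) and Iglc3 (0.723 ± 0.471 and 11.7 ± 5.63 CPM). Ighg3 was listed at 0 counts in all 3 WT tumors. Genes that guide plasma cells to the colon or keep them alive were tested in 16 of 18 cases, and 3 fell in each kind of tumor. Tgfb1, which drives class switching to IgA, rose in WT tumors (log2 change 0.84), and none rose in Smox-/- tumors. The 3 of 16 that fell stand beside the 13.2% and 17.5% of all genes called lower in Smox-/- and WT tumors, and so are close to the background. Tnfsf13, the gene of APRIL, averaged 14.97 ± 8.68 CPM in Smox-/- tumors and 35.9 ± 10.5 CPM in tumor-free Smox-/- colon, and 9.68 ± 5.43 CPM in WT tumors and 33.5 ± 5.42 CPM in tumor-free WT colon. Ccl28, an epithelial chemokine for IgA plasma cells, fell in WT tumors to 26.5 ± 26.0 CPM, against 236 ± 69.3 CPM in tumor-free WT colon. Ccr10, its receptor, fell in Smox-/- tumors (log2 change -2.51), and Ccr6, a homing receptor of B cells, fell in both (-4.01 in Smox-/- and -4.81 in WT). Of the 12 genes of the plasma cell list 1 rose and 1 fell in Smox-/- tumors, with a log2 change below 0 in 11 (median -0.43). In WT tumors 2 rose and 2 fell, with a log2 change below 0 in 9 (median -0.20). Of all genes 11.4% were called higher in Smox-/- and 16.9% in WT tumors. Sdc1, which epithelium also makes, rose in both (log2 change 0.57 and 0.84).

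Pigr fell in both kinds of tumor, while its means over the 8 tumor-free groups lay between 4171 and 5784 CPM. It was at 1064, 1045 and 2916 CPM in Smox-/- tumors, against 4834, 4286 and 6933 CPM in tumor-free Smox-/- colon after AOM-DSS. In WT mice it was at 973, 2089 and 778 CPM in tumors, against 4436, 5568 and 7348 CPM in tumor-free colon after AOM-DSS with spermidine. No tumor reached its tumor-free group. The log2 change was -1.68 (SE 0.42, adjusted p 0.00982) in Smox-/- and -2.18 (SE 0.43, adjusted p 0.000901) in WT mice by edgeR. The WT call held without any 1 of the 6 libraries, at adjusted p of 0.000471 to 0.00904, and the Smox-/- call did not without tumor replicate 1 or 2 (0.0703 and 0.0620). The log2 change of Pigr between genotypes was 0.31 in untreated colon (95% interval -0.49 to 1.11), 0.09 after spermidine (-0.70 to 0.89), 0.00 after AOM-DSS (-0.80 to 0.80) and -0.40 after AOM-DSS with spermidine (-1.20 to 0.40), and none was called.

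**Figure D5:**
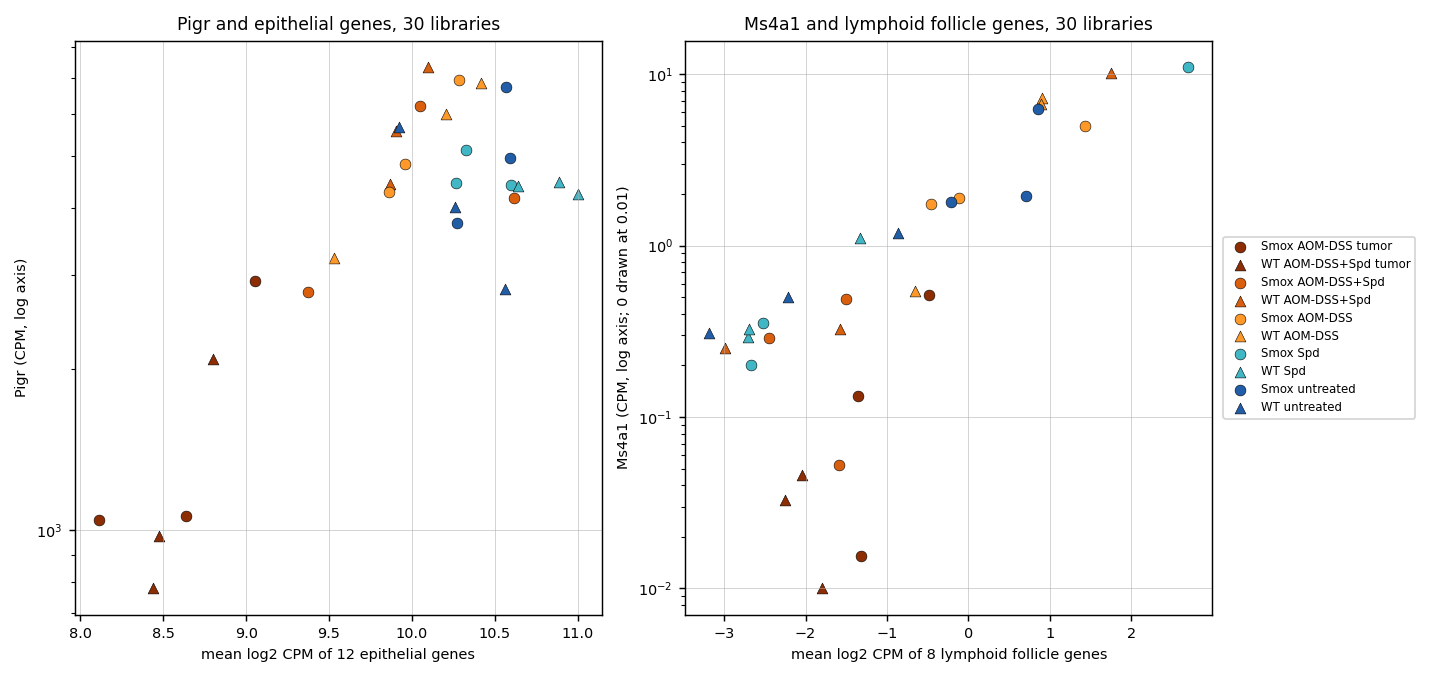
Pigr CPM against the mean log2 CPM of 12 epithelial genes (left) and Ms4a1 CPM against the mean log2 CPM of 8 lymphoid follicle genes (right) in the 30 libraries; vertical axes are logarithmic and a count of 0 is drawn at 0.01. The 6 tumors hold the lowest epithelial means, 8.11 to 9.05, and 5 of them the lowest Pigr. Libraries with a follicle mean above 0 hold the highest Ms4a1, but the follicle list includes the B cell genes Cr2, Fcer2a and Cxcr5.

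Other tissue components moved with the tumors, and their part in the changes was not tested. The mean log2 CPM of 12 epithelial genes was 8.11 to 9.05 in Smox-/- tumors and 9.86 to 10.3 in tumor-free Smox-/- colon, with 5 genes lower and 1 higher. It was 8.44 to 8.80 in WT tumors and 9.87 to 10.1 in tumor-free WT colon, with 9 lower and 1 higher. The 8 smooth muscle genes, which mark the muscle wall, had a mean log2 CPM of 2.03, 2.65 and 6.51 in Smox-/- tumors and of 0.75 to 2.80 in WT tumors, against 6.37 to 8.62 and 6.54 to 6.90 in the tumor-free groups. Smox-/- tumor replicate 3, with the highest smooth muscle value of the tumors, was also the tumor highest in Igha, Jchain and Pigr. The distal hindgut Hox genes were at 5.61 to 5.84 in Smox-/- tumors and 1.62 to 2.58 in tumor-free Smox-/- colon after AOM-DSS, with 4 of 6 higher in tumors, and at 5.85 to 6.12 in WT tumors and 5.71 to 6.05 in tumor-free WT colon. Hox level and tumor status therefore cannot be told apart in the Smox-/- comparison. For the lists that follow, 11.4% of all genes were called higher in Smox-/- and 16.9% in WT tumors. Of 6 squamous epithelial genes 3 rose in Smox-/- tumors and none in WT tumors. Of 10 T cell genes 1 rose in each kind of tumor, Zap70, and none fell, but 8 of the 10 had a log2 change below 0 in each (median -0.81 in Smox-/- and -1.03 in WT mice). Of 6 macrophage genes 2 rose in WT and none in Smox-/- tumors. Of 4 tested cytokines that raise Pigr in cultured epithelium, Tnf, Il17a and Il1b rose in WT tumors, in which Pigr fell, and none was called in Smox-/- tumors. The same 3 cytokines rose in untreated Smox-/- colon, Il17a being listed at 0 counts in untreated WT colon, and there the log2 change of Pigr was 0.31, without a call.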

How the data were processed

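The authors deposited a table of expected counts (estimated counts per gene, whole numbers in the file) for 31023 genes in 30 libraries. Per the submitters' processing notes fastp, Salmon and DESeq2 were used with build GRCm38; versions, settings and the strand setting of the counting are not given in the sources used here. Per the labels the library kit was directional. Total counts per library were 33060607 to 81011304, and no pair of libraries was identical.

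The test was edgeR's (version 4.0.16, R 4.3.3), run on the deposited counts. filterByExpr (minimum count 10, minimum total 15) kept 19558 genes and removed 11465; libraries were scaled by TMM, and 1 robust quasi-likelihood model with a mean per group was fitted to all 30 (20 residual degrees of freedom, common dispersion 0.177). For the 18 contrasts the Benjamini-Hochberg adjustment ran over all tested genes, with 0.05 as threshold. The procedure was tested on simulated data. CPM uses TMM-scaled library sizes, and log2 CPM a prior count of 2. Intervals of 95% are the fitted value plus and minus 1.96 SE. Of the genes, 30965 were found in GENCODE vM21, which named 10546 without a symbol. Mzb1 shares 695 exon bases with Spata24 on the same strand, so reads of these bases cannot be told apart by position. Ms4a1 overlaps an antisense gene with 108 counts and shares no exon bases with it.

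The 9 genes and the lists were chosen with earlier results of these data known. All 9 are described. Of each list, counts are given and at most 3 called genes with the smallest adjusted p are named; for Igha, Jchain, Ms4a1 and Pigr the 3 genes most alike outside the 9 are named. Alternatives were RLE scaling, scaling without immunoglobulin genes, no filter, DESeq2 1.42.0, only the groups compared, leaving out each library, and leaving out a pair of libraries called atypical from earlier results (untreated WT replicate 3 and Smox-/- replicate 1 after AOM-DSS with spermidine). Of the 9 genes 4 had an entry in the RefSeq promoter table.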

Additional observations from a re-analysis of the deposited data

How the results depend on the processing

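In the comparison of untreated Smox-/- with untreated WT colon, 1 of the 9 genes was called, Igha. The number was 0 without the filter on low counts, 0 without the pair of atypical libraries and 0 in a model of only the groups compared. It was 3 with DESeq2 and 0 to 1 when each library was left out. Of all genes 515 were called higher in the main fit. That number was 266 without the filter, 24 without the pair, 0 with only the groups compared and 1180 with DESeq2. Leaving out each library gave 3 to 490 genes. In Smox-/- tumors the 6 calls became 2 in a model of only the groups compared and 0 to 8 when each library was left out. Over all genes the 2585 called lower became 1387 and 466 to 3044 in these fits. In WT tumors the 7 calls became 4 in a model of only the groups compared and 1 to 7 when each library was left out. Over all genes the 3418 called lower became 3689 and 2167 to 3174. DESeq2 made 1 call between the 2 kinds of tumor, 4 for spermidine in Smox-/- colon after AOM-DSS, 3 for AOM-DSS in WT colon and 3 for AOM-DSS in Smox-/- colon given spermidine, where edgeR made none. The cause of these differences was not tested. DESeq2 gave no adjusted p for Ms4a1 in any comparison.

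For AOM-DSS in Smox-/- colon given spermidine, the log2 change, -3.78 for Cd79a and -3.69 for Cd79b, was 0.35 and 0.030 without Smox-/- replicate 1 after spermidine. Leaving out each library in turn gave -4.31 to 0.35 for Cd79a and -4.20 to 0.030 for Cd79b. Scaling by RLE and scaling without immunoglobulin genes changed no count of calls. Among values of single genes under an alternative, 284 kept their direction and side of the threshold, 55 lost a call, 17 gained one and 2 reversed. No paired analysis was possible because the numbers in the titles run from 1 to 30 over the libraries and pair no samples. Depth limits Tnfrsf17 most, followed by Ms4a1 in tumors, where a library can hold 3 counts or fewer.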
